A study of Mus musculus with 10 samples.

Results

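The creatine kinases, the creatine transporter and 3 adenylate kinases of mouse cardiomyocytes are described here: Ckm, Ckb, Ckmt1, Ckmt2, Slc6a8, Ak1, Ak3 and Ak4. They were chosen by symbol, and all 8 were found among the 23337 genes of the one table analysed, the authors' own comparison of dnMKL1 with GFP. The mice were wild type, and all received virus on postnatal day 1 at 5e+08 viral genomes per gram. In one group of 5 samples the AAV9 vector expressed GFP, and in the other, also of 5, GFP together with dnMKL1, a dominant-negative form of the SRF coactivator MKL1. Both vectors used the cTNT (cardiac troponin T) promoter, so expression was aimed at heart muscle cells. On postnatal day 14 cardiomyocytes were released by collagenase perfusion, sorted by fluorescence and sequenced as RNA, and the comparison asks which transcripts differ between the groups.

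Heart muscle cells make most ATP in mitochondria and spend it at the myofibrils and the sarcoplasmic reticulum. Creatine kinases pass the phosphate between ATP and creatine, with mitochondrial forms (Ckmt1, Ckmt2) near the site of ATP synthesis and cytosolic forms (Ckm, Ckb) near the sites of use, while adenylate kinases interconvert ATP, ADP and AMP. Creatine itself is taken up by the transporter Slc6a8, and in the maturing heart Ckm and Ckmt2 become the main creatine kinases.

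Transcripts of the muscle creatine kinases were lower in dnMKL1 cardiomyocytes: Ckm fell by 64.8% and Ckmt2 fell by 49.5%, whereas the transporter Slc6a8 and the adenylate kinase Ak4 differed by less than 2% and did not pass the test. Of the 8 genes, 4 were lower (Ckm, Ckmt2, Ckb and Ak3) and 1 was higher (Ckmt1) at an adjusted Wald p-value under 0.05 in the authors' deposited table, and 3 (Slc6a8, Ak1 and Ak4) did not pass. Across all 14056 genes tested in that table, 34.1% passed, with 16.6% of all tested genes higher and 17.4% lower. The median log2 fold change was 0.021 over all tested genes and -0.23 over the 8. With both groups brought to the same total, Ckm, Ckmt2 and Ckb were still lower, Ckmt1, Slc6a8 and Ak4 were higher and Ak1 and Ak3 did not pass, where 40.4% of all tested genes were higher and 6.6% lower. One rise, that of Ckmt1, rested on about 4.41 reads over all GFP libraries. No values per library are given in the table, so replicate error is read from the standard error (SE) of each gene, and whether 1 library decides a value was not tested.

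**Figure D1:**
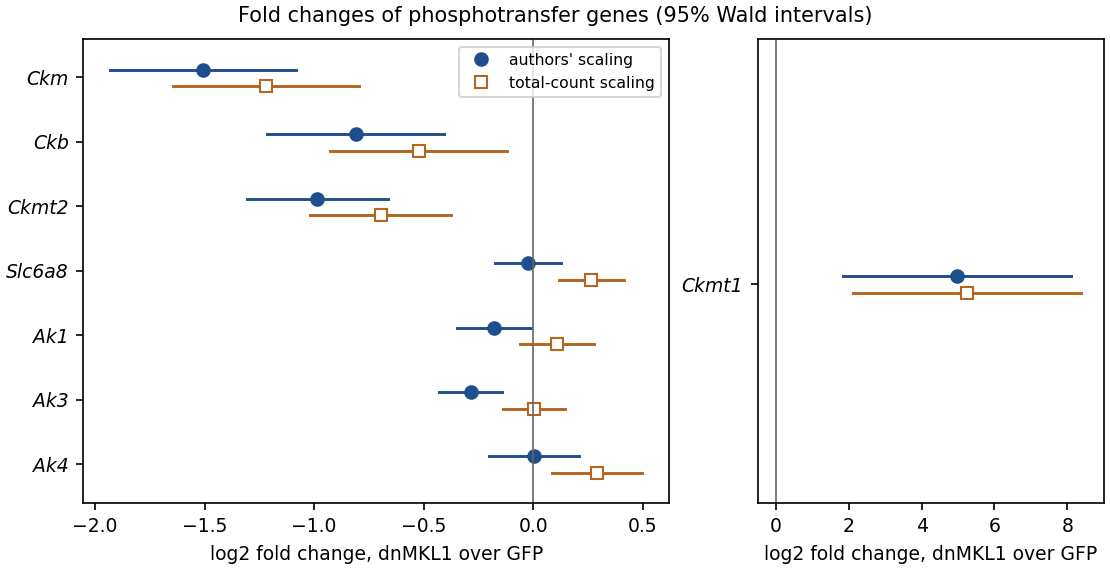
Log2 fold changes of the 8 genes (x axis, dnMKL1 over GFP) with 95% Wald intervals, filled circles under the authors' scaling and open squares after both groups were brought to the same total. Ckm, Ckmt2 and Ckb lie below 0 under both, Ckmt1 above 0 under both with a wide interval, and Ak3 moves from -0.28 to 0.0039.

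Mkl1, whose sequence the vector carries in altered form, set the reading of the signs: the authors' deposited table lists it at 9.80 (log2 scale, SE 0.15), so positive values were read as higher in dnMKL1. Estimated library totals ran from 8.80e+06 to 1.71e+07 counts for GFP and from 8.83e+06 to 1.72e+07 for dnMKL1. The direction of small changes depends on the scaling, because bringing both groups to the same total adds 0.29 to every log2 fold change. All 8 cardiomyocyte markers were present at base means (the mean normalized count over libraries) of 10438 or more. By adjusted p-value 6 of them were lower and 0 higher, with a log2 ratio of their summed levels of -0.88. Of all 140 genes tested with a base mean of 10000 or more, 70.7% were lower, with a median log2 fold change of -0.60. Under total-count scaling, where 6.6% of all genes tested were lower, 5 of the 8 markers were lower. Myh6, Atp2a2 and Actc1, a myosin, a calcium pump and an actin, were the most abundant of these; Myh6 was at -0.87 (SE 0.11), Atp2a2 at -0.90 (SE 0.096) and Actc1 at -1.55 (SE 0.15) in the authors' deposited table. In bulk samples fewer cells of a type and less RNA per cell cannot be told apart.

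Ckm encodes the muscle creatine kinase, which binds in part to the M-band of the sarcomere. Its group means, as implied by base mean and fold change together, were 51684 ± 12252 normalized counts in GFP and 18176 ± 4309 in dnMKL1 libraries (implied SD, n = 5 each). The SD here is the spread between libraries that the deposited SE implies under a negative binomial model, and the ranges of 1 SD around the means do not overlap. Because this SD comes from the same SE as the Wald p-value, overlap of such ranges, here and below, is no further test. For Ckm the authors' deposited table lists a log2 fold change of -1.51 (SE 0.22; 95% interval -1.93 to -1.08), with an adjusted Wald p-value of 9.6e-11. Its share of all normalized counts went from 0.388% to 0.167%. Ckm was the 26th most abundant gene of the table by base mean. Of the 140 genes tested with a base mean of 10000 or more, 70.7% were lower, and 2 had a log2 fold change below that of Ckm: the actin Actc1 and the troponin Tnnc1 at -1.54, the latter named after its value was seen.

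Ckmt2 encodes the sarcomeric mitochondrial creatine kinase of the intermembrane space. Its implied means were 48926 ± 8805 normalized counts in GFP and 24718 ± 4448 in dnMKL1 libraries (implied SD, n = 5 each), again without overlap of these ranges. The authors' deposited table gave a log2 fold change of -0.99 (SE 0.16; 95% interval -1.31 to -0.66) and an adjusted Wald p-value of 3.5e-08. Its rank by base mean was 25, next to Ckm. Genes of this abundance had a median of -0.60, and measured against that median the log2 fold change of Ckmt2 was -0.39 and no longer passed (adjusted p = 0.054), while that of Ckm was -0.91. The log2 fold change of Ckm was lower than that of Ckmt2 by 0.52 and their intervals overlap; this difference was not tested.

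Ckb, the brain-type creatine kinase, is the cytosolic form of early heart development and of many other cell types. It fell as well, from an implied mean of 1913 ± 429 normalized counts to 1091 ± 245 (implied SD, n = 5 each), and the ranges of 1 SD do not overlap. On the log2 scale the authors' deposited table puts this change at -0.81 (SE 0.21; 95% interval -1.21 to -0.41), with an adjusted Wald p-value of 5.2e-04. Among genes with base means from 1000 to 10000, 40.1% were lower. Under total-count scaling the log2 fold change was -0.52 and still passed (adjusted p = 0.027). Reads of the processed pseudogenes Ckb-ps1 and Ckb-ps2, present in the annotation, may be shared with Ckb.

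Cells other than cardiomyocytes can express Ckb, and the levels of their markers are given for comparison. Of the endothelial markers 0 of 8 passed an adjusted Wald p-value of 0.05 and 0 an unadjusted one, and the log2 ratio of their summed levels was 0.046. Kdr, Pecam1 and Tie1 were the most abundant of them. Fibroblast markers had 3 of 8 higher and 0 lower and a ratio of 0.47, with Col1a2, Col1a1 and Col3a1 past the test. Of 7 mural markers 2 were higher and 1 lower, and the ratio was -0.20. Acta2 and Abcc9, at implied GFP means of 10454 and 6332 normalized counts, made up most of the list's GFP sum of 18085. The ratio therefore mainly follows these 2 genes. By the authors' deposited table Cspg4 was at 2.01 (SE 0.18), Acta2 at -1.06 (SE 0.25), Myh11 at 0.73 (SE 0.20) and Abcc9 at 0.30 (SE 0.15). Macrophage markers had 1 of 8 higher (Cd68), 0 lower and a ratio of -0.15. Schwann cell markers had 1 of 4 tested higher (S100b), 0 lower and a ratio of 0.50, at base means of 31.0 or less. Erythroid markers had 0 of 3 tested past the threshold and 0 at an unadjusted Wald p-value under 0.05, a ratio of 0.49, and Hba-a1 and Hba-a2 listed at 0. Hbb-bs had a base mean of 57.0, so these zeros do not stand for absence of erythroid RNA. Under total-count scaling 6 of 8 fibroblast markers were higher and 0 lower, and 4 of 7 mural markers higher and 1 lower. The other marker counts of this paragraph were as before. Of all genes tested, 16.6% were higher and 17.4% lower under the authors' scaling, and 40.4% higher and 6.6% lower under total-count scaling. The part of these cell types in the fall of Ckb was not tested.

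The sequences upstream of the 3 creatine kinase genes that fell together are shown because SRF, the partner of MKL1, binds the CArG box. Each ends 1 base before the outermost transcript start that GENCODE or RefSeq places inside its window, which for Ckmt2 is a RefSeq start; a non-coding Ckm model of GENCODE starts further upstream. They come from RefSeq promoter windows on GRCm38.p6 and lie at chr7:19410844-19411024 (plus strand) for Ckm, chr13:91876924-91877135 (minus strand) for Ckmt2 and chr12:111672339-111672588 (minus strand) for Ckb. Capitals mark matches to any of the motifs named in the next paragraph.
Ckm: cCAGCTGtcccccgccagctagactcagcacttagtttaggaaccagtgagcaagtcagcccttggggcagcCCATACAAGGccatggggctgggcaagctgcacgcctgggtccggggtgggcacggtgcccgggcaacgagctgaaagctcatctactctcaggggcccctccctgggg
Ckmt2: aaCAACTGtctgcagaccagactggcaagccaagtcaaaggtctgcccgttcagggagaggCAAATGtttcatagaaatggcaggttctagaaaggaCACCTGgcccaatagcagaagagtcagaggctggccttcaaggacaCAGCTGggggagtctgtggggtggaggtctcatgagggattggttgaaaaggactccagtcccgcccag
Ckb: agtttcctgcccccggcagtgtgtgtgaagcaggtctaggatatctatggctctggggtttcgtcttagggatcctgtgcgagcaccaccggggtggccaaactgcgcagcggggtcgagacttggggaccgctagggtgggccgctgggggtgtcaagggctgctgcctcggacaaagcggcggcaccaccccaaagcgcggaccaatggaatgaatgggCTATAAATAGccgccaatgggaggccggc

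Each 300-base window, from 250 bases before to 50 after a RefSeq transcript start, was searched on both strands. The strict CArG box, searched by its name alone, was found in 0 of the 14 windows of the 7 matched genes and in 1.63% of all 32851 windows. A CArG-like match, with 1 G or C in the core, was CCATACAAGG in the Ckm window, at -178 from the RefSeq start, and 8.50% of all windows hold such a match. Another, CCTGTAAAGG, lay at -245 in a window of Ak4, which did not pass the test. Ckb held no such match; its CTATAAATAG, at -29 from the start, matches the MEF2 site and contains TATAAA, and 1.33% of windows hold matches to both motifs. A window of Ak1, which did not pass the test either, also matches both, with TTATAAATAG at 21. In the Ckmt2 window the E-box CANNTG occurred 4 times, as often or more often in 6.49% of windows, and once in that of Ckm. TNAAGGTCA, a site of estrogen-related receptors, was in none of the 14 windows and in 1.28% of all. A match is a description of letters, and none of these windows was assayed for binding here.

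Ckmt1 encodes the ubiquitous mitochondrial creatine kinase, typical of brain and other tissues outside striated muscle. It was near 0 in GFP libraries, at an implied mean of 0.899 normalized counts, and at 28.1 in dnMKL1 libraries. The implied reads were 4.41 over all 5 GFP libraries and 157 over all 5 dnMKL1 libraries. In log2 terms the authors' deposited table lists a rise of 4.97 (SE 1.60; 95% interval 1.84 to 8.10), with an adjusted Wald p-value of 0.0077. With 3 normalized counts in place of the GFP mean the ratio was 9.38, a value that still rests on fitted means and is no bound. The spread between libraries that the SE implies was 156% of the mean. Of 11922 genes at base means of at least 10, 11 had an SE as large, Ckmt1 included, and 0 of the others passed an adjusted Wald p-value of 0.05. Strc, which overlaps the end of Ckmt1 on the other strand, had a base mean of 0.063.

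**Figure D2:**
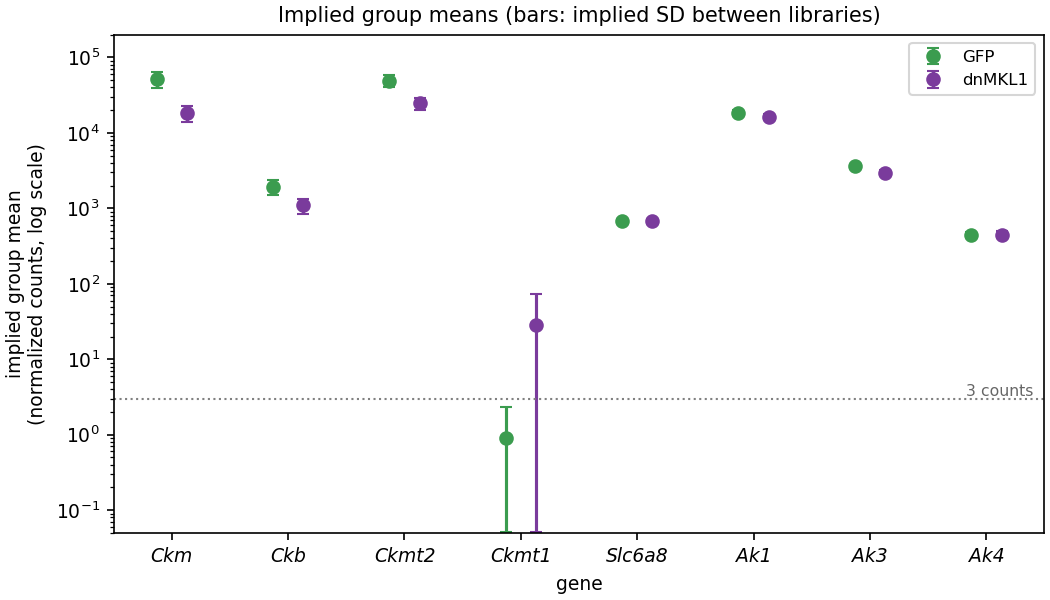
Implied group means of the 8 genes in normalized counts (y axis, log scale), GFP in green and dnMKL1 in purple, with bars of 1 implied SD between libraries; a bar that would pass 0 runs to the foot of the axis. Ckm and Ckmt2 are separated between the groups by more than their bars, Slc6a8 and Ak4 coincide, and Ckmt1 is the one gene whose GFP mean lies under 3 counts.

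Slc6a8, the plasma membrane transporter that brings creatine into the cell, was at implied means of 682 ± 50.2 and 672 ± 49.4 normalized counts in GFP and dnMKL1 libraries (implied SD, n = 5 each). The 2 ranges overlap. The authors' deposited table gave a log2 fold change of -0.023 (SE 0.076; 95% interval -0.17 to 0.13), with an adjusted Wald p-value of 0.87. The ends of this interval stand for changes of -11.2% and 9.09%. Under total-count scaling the value reversed to 0.27 and passed (adjusted p = 0.0017). The log2 fold change of Ckmt2 was lower by 0.96 than that of the transporter, a difference that no common scaling alters. It was smaller when each gene was measured against the median of its own abundance class. Ckmt2 was then at -0.39 and Slc6a8 at -0.031. The difference was not tested. Of the 2 genes of creatine synthesis, Gamt, which methylates guanidinoacetate to creatine, was higher at 0.96 (SE 0.25; adjusted p = 6.4e-04) in the authors' deposited table, with implied means of 28.7 and 55.9 normalized counts. Gatm, which makes guanidinoacetate, had a log2 fold change of 0.030 (SE 0.39) at a base mean of 13.6 in the authors' deposited table.

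Ak1, the cytosolic adenylate kinase of muscle, was the most abundant adenylate kinase, with implied means of 18409 ± 1740 and 16263 ± 1537 normalized counts in GFP and dnMKL1 libraries (implied SD, n = 5 each). The ranges of 1 SD overlap. In the authors' deposited table the log2 fold change of Ak1 is -0.18 (SE 0.087; 95% interval -0.35 to -0.0093), with an unadjusted Wald p-value of 0.039 and an adjusted one of 0.098. The gene is of the same abundance class as Ckm and Ckmt2, and 77.1% of that class had a lower log2 fold change. Against the median of the class its value reversed to 0.42 and passed (adjusted p = 1.5e-05), and under total-count scaling it reversed to 0.11 without passing.

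Ak3, which uses GTP in the mitochondrial matrix, fell from an implied mean of 3604 ± 282 to 2960 ± 232 normalized counts (implied SD, n = 5 each), and the ranges of 1 SD do not overlap. It fell by 17.9%, which is -0.28 on the log2 scale in the authors' deposited table (SE 0.073; 95% interval -0.43 to -0.14), at an adjusted Wald p-value of 6.3e-04. This fall was lost under total-count scaling, where the value reversed to 0.0039 (adjusted p = 0.97), and against the median of genes from 1000 to 10000 in base mean it was -0.15 (adjusted p = 0.096). Cdc37l1 overlaps Ak3 on the other strand and had a log2 fold change of -0.59 (SE 0.090) at a base mean of 1385 in the authors' deposited table. The use of strand in counting is not given in the sources used here, so reads of the overlap may be shared.

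Ak4, a second adenylate kinase of the mitochondrial matrix, had implied means of 445 ± 46.6 and 447 ± 46.8 normalized counts (implied SD, n = 5 each), with overlapping ranges. The authors' deposited table puts the log2 difference at 0.0050 (SE 0.11; 95% interval -0.20 to 0.21), with an adjusted Wald p-value of 0.98. Under total-count scaling it was 0.29 and passed (adjusted p = 0.014). Of the other adenylate kinases, Ak5, Ak7 and Ak8 had base means under 1 and no adjusted p-value in that table.

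The 8 genes differed in how far libraries of one group scattered. The implied coefficient of variation between libraries was 23.7% for Ckm, 22.4% for Ckb and 18.0% for Ckmt2, and from 7.36% to 10.5% for Slc6a8, Ak3, Ak1 and Ak4. Within its abundance class Ckm had a larger SE than 96.4% of genes, Ckb than 96.1% and Ckmt2 than 90.7%, while Ak1 had a larger SE than 12.1% and Slc6a8 than 4.70%. So the creatine kinases that fell also scattered more between libraries than most genes of like abundance.

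**Figure D3:**
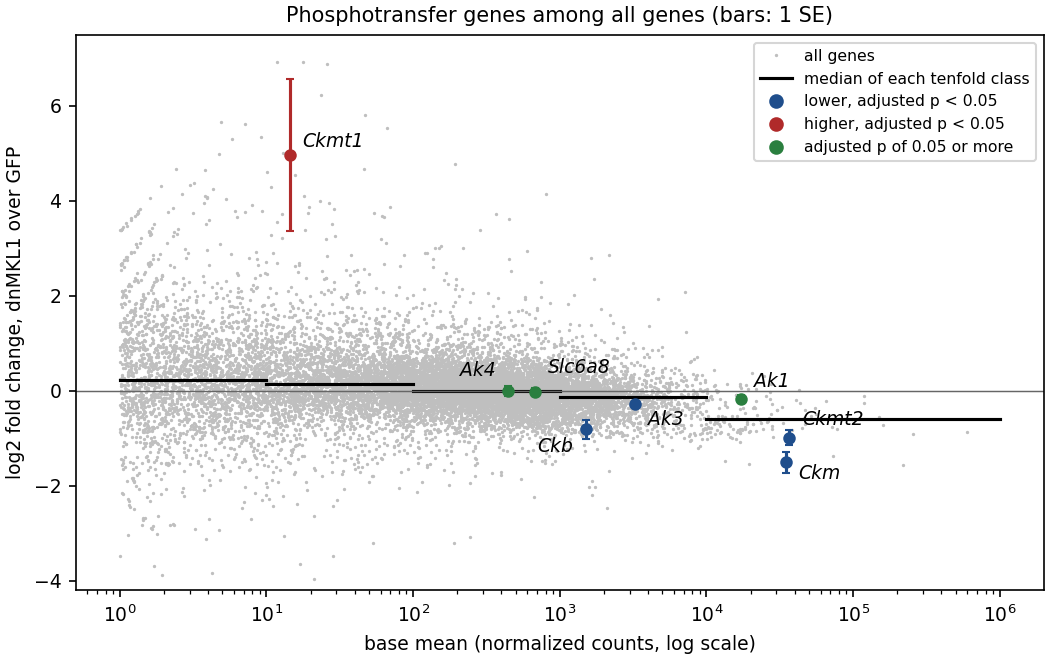
Log2 fold change (y axis, dnMKL1 over GFP) against base mean (x axis, normalized counts, log scale) for genes whose base mean is at least 1; bars on the 8 named genes are 1 SE and black lines are medians of abundance classes. The class median falls to -0.60 at base means of 10000 or more, where Ckm lies below it at -1.51, Ckmt2 below it at -0.99 and Ak1 above it at -0.18.

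Levels of different genes were compared per kilobase (kb) of the longest annotated transcript. In GFP libraries the order was Ckmt2 at 32924 ± 5925 normalized counts per kb, Ckm at 18849 ± 4468, Ak1 at 8829 ± 834, Ak3 at 1283 ± 101, Ckb at 674 ± 151, Slc6a8 at 172 ± 12.7, Ak4 at 102 ± 10.7 and Ckmt1 at 0.555 (implied SD, n = 5). Neighbours in this order are further apart than their SDs. The order of the first pair depends on the transcript chosen: with the first-numbered GENCODE transcript, of 1.24 kb in place of 2.74 kb, Ckm stood at 41849 ± 9921, within 1 SD of Ckmt2. With the same choice Ckb stood at 1299.7 ± 292 normalized counts per kb, within 1 SD of Ak3. The longest transcript of Ckb, of 2839 bases, is not protein coding. Its longest protein-coding transcript, of 1472 bases, gave 1299.7 as well. In dnMKL1 libraries Ckmt2 was at 16634 ± 2994 normalized counts per kb, Ak1 at 7800 ± 737 and Ckm at 6629 ± 1571, the latter pair within 1 SD of each other. That too depends on the transcript: with the first-numbered one Ckm stood at 14717 ± 3489 and Ak1 at 7996 ± 756, further apart than their SDs.

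The summed level of the 4 creatine kinases per kb in dnMKL1 libraries was 0.451 times that in GFP libraries, and 0.422 times with the first-numbered transcripts. For Ak1, Ak3 and Ak4 together the same ratio was 0.877 under either choice. Ckmt2 made up 62.8% of the creatine kinase level per kb in GFP and 70.3% in dnMKL1 libraries, and Ckm 35.9% and 28.0%. With the first-numbered transcripts Ckm made up 55.0% and 45.8%. Ckb made up 1.28% in GFP and 1.62% in dnMKL1 libraries under the longest transcripts, and 1.71% and 2.31% with the first-numbered ones. Under the longest transcripts Ckmt1 reached 0.0734% in dnMKL1 libraries. These shares are descriptions with no test.

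The genes lie at chr7:19404776-19422841 (Ckm, plus strand), chr13:91853387-91876885 (Ckmt2, minus), chr12:111669361-111672338 (Ckb, minus), chr2:121357714-121363737 (Ckmt1, plus), chrX:73673150-73682502 (Slc6a8, plus), chr2:32621758-32635058 (Ak1, plus), chr19:29020833-29047961 (Ak3, minus) and chr4:101419277-101466995 (Ak4, plus) in GENCODE M21 on GRCm38. All are protein coding. Non-coding antisense genes overlap Ckm, Ckmt2 and Ak3. Slc6a8, Ckb, Ak4 and Ak1 overlap no other annotated gene.

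Other genes of the pathway were taken from lists by function, each set beside the median of 0.021 over all genes tested. Of all genes tested, 16.6% were higher and 17.4% lower, and under total-count scaling 40.4% were higher and 6.6% lower. Genes that move ATP, ADP and phosphate across the mitochondrial membranes were lower in 5 of 7 cases and higher in 0, and their median was -0.53 on the log2 scale. These are abundant genes: 4 of the 7 had base means of 10000 or more, where 70.7% of genes were lower with a median of -0.60, and 2 lay in the class from 1000 to 10000, where 40.1% were lower. Vdac3 stood at -0.58 (SE 0.071) and Vdac1 at -0.53 (SE 0.079), both pores of the outer membrane, and the phosphate carrier Slc25a3 at -0.76 (SE 0.095) in the authors' deposited table. Of the adenine nucleotide translocases, named after their values were seen, Slc25a4, the form of heart and muscle, was at -0.76 (SE 0.14; adjusted p = 1.5e-06) and Slc25a5 at 0.11 (SE 0.093; adjusted p = 0.39) in the authors' deposited table; this difference was not tested. Under total-count scaling the same 5 genes were below 0, while Slc25a5 was at 0.40.

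Subunits of AMPK, the kinase that senses AMP, went both ways, with 2 of 7 higher and 3 lower and a median of -0.15. Under total-count scaling 2 were higher and 2 lower, where 40.4% of all genes tested were higher and 6.6% lower. Of the 7, 3 had base means from 1000 to 10000, where 40.1% of genes were lower. Prkag2 was at 0.83 (SE 0.12), Prkab2 at -0.70 (SE 0.12) and the catalytic subunit Prkaa2 at -0.56 (SE 0.11) in the authors' deposited table. Of the enzymes of adenine nucleotide turnover, 2 of 9 tested were higher and 4 lower, with a median of -0.41. Base means from 1000 to 10000 were found for 4 of these 9. Total-count scaling also gave 2 higher and 4 lower, beside its 40.4% higher and 6.6% lower over all genes tested. The AMP deaminase Ampd3 was at -0.87 (SE 0.084), adenylosuccinate lyase Adsl at -0.75 (SE 0.072) and adenosine kinase Adk at -0.75 (SE 0.10) in the authors' deposited table. The 2 that were higher, named after their values were seen, were Ampd2 at 0.90 (SE 0.20) and Adss at 0.89 (SE 0.19) there. Ampd3, Adsl and Adk stayed below 0 and past the threshold under total-count scaling.

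Nucleoside diphosphate kinases, which pass phosphate from ATP to other nucleotides, had 1 of 6 higher and 3 lower, with a median of -0.28. Nme3 was at -0.85 (SE 0.16), Nme2 at -0.50 (SE 0.11) and Nme1 at 0.30 (SE 0.10) in the authors' deposited table. At an adjusted p-value under 0.01 the count was 0 higher and 2 lower, and under total-count scaling 1 higher and 1 lower. The latter scaling put 40.4% of all genes tested higher and 6.6% lower. Of the 4 genes tied to creatine kinase at the M-band, Myom1 fell, at -0.87 (SE 0.12) in the authors' deposited table. Myom2 was at -0.37 (SE 0.17; adjusted p = 0.080) and Myom3 at 0.25 (SE 0.20; adjusted p = 0.38) there. The list as a whole had 0 higher and 1 lower with a median of -0.17, and 2 higher and 1 lower under total-count scaling. Of its 4 genes, 3 had base means of 10000 or more, where 70.7% of genes were lower with a median of -0.60.

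**Figure D4:**
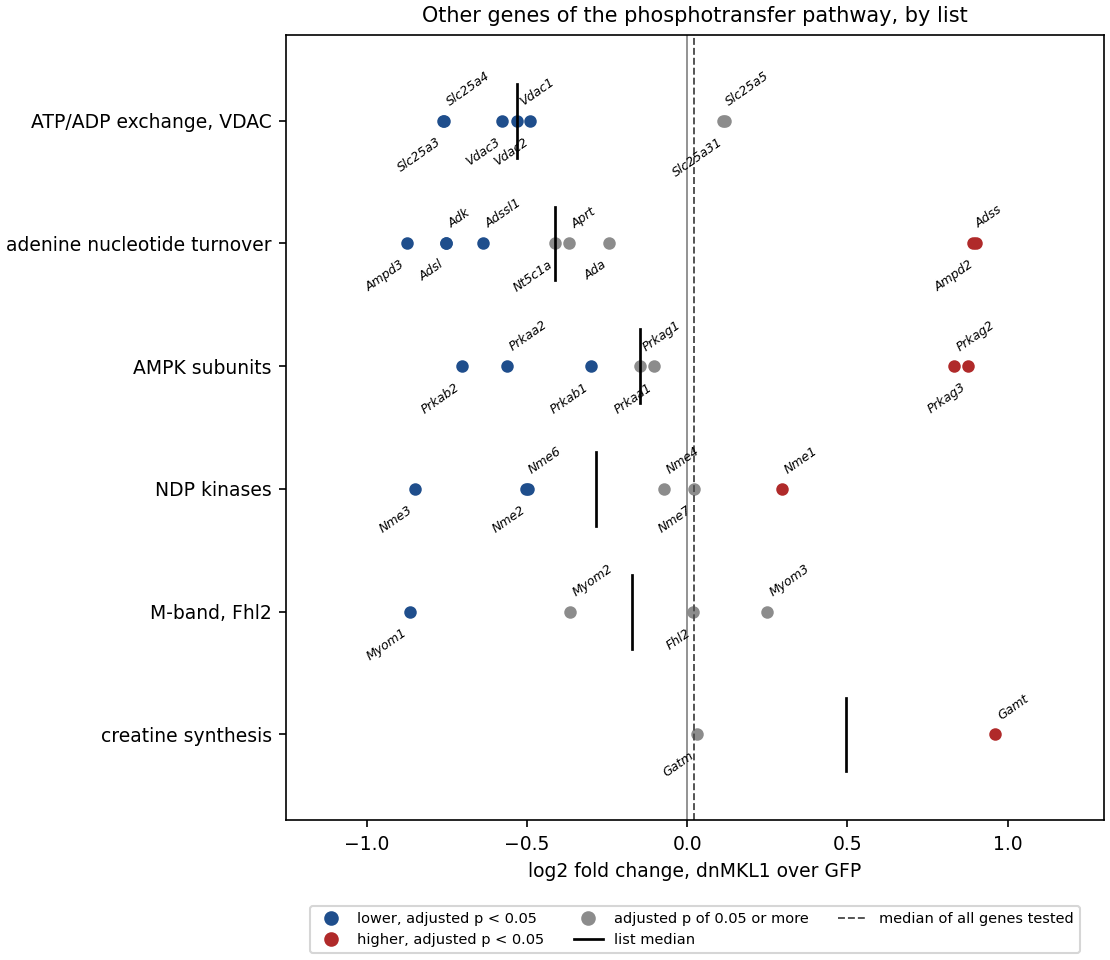
Log2 fold changes (x axis, dnMKL1 over GFP) of the other pathway genes with an adjusted p-value, by list (y axis); blue points are lower and red points higher at an adjusted p-value under 0.05, and black bars are list medians. The exchange genes have 5 points below 0 and 2 above, and AMPK subunits lie on both sides of 0.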

How the data were processed

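RNA from 5 GFP and 5 dnMKL1 samples was sequenced; per the labels' protocols, 10 ng of RNA entered SMART-Seq with 8 PCR cycles and 500 pg of cDNA a Nextera XT preparation. Per the submitters' processing notes, the tools were STAR 2.5.3a and featureCounts (Subread 1.5.2) on mm10; annotation and strand use are not given in the sources used here. Per the file headers, which name columns as DESeq2 does, the authors' deposited table holds the base mean (a signal in normalized counts), the log2 fold change with its SE on the log2 scale, the Wald statistic (a score), its p-value and the adjusted p-value. Recomputing the deposited Wald p-values and their Benjamini-Hochberg adjustment left gaps of at most 4.1e-07 and 1.4e-07. Of 23337 genes, 14056 had an adjusted p-value, and under 0.05 was called. The deposited Wald test is the test used, no values per library being given; its p-values measure the spread between samples, 5 per group, which may be technical, since the labels do not say that they came from separate mice.

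Implied means solve for the levels of 2 equal groups that give the listed base mean and ratio. Size factors, recovered from 909 genes whose values match 1 read in 1 library, gave the totals and, with the SE, the implied coefficient of variation; the adjustment and the coefficient were tested on simulated data (Python 3.11.15, scipy 1.17.1). Reads carry no molecular identifiers. Total-count scaling, median-centring, class medians, thresholds and transcript lengths (GENCODE M21) were varied. The 8 genes and all lists were chosen with earlier results of these data known. Named genes are the 8, Mkl1 and, per list, up to 3 with the smallest p-values and, for markers, the largest base means. Adgre1 was matched as Emr1 and Hbb-bs as Beta-s; Ak6, Ak9 and Hbb-bt are not analysed here, and 1 further gene is not reported here.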

Additional observations from a re-analysis of the deposited data

How the results depend on the processing

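No paired analysis was possible because the table gives no values per library; for the same reason leaving out each replicate in turn was not run. Of 63 fold changes of the 8 genes under an alternative, 53 kept their direction and call. This count is no measure of robustness. Alternatives in threshold, adjustment or minimum base mean left each fold change as it was, so its direction could not change. Median-centring added only -0.0041. All 5 reversals came under total-count scaling or centring on the abundance class. Total-count scaling reversed Slc6a8 to 0.27, Ak1 to 0.11 and Ak3 to 0.0039 and brought Ak4 past the threshold at 0.29, by the shift itself. Centring on the abundance class reversed Ak1 to 0.42 and Ak4 to -0.0026 and left Ckmt2 at -0.39 and Ak3 at -0.15, both no longer past. Ak1 at -0.18 passed at a threshold of 0.1, and Ak3 at -0.28 was lost when a log2 change of 0.5 or more in size was also asked for, which left 2735 of the 4792 genes called (1489 higher, 1246 lower). Under total-count scaling 5685 genes were higher and 927 lower, against 2340 and 2452. Ckm, Ckb and Ckmt1 kept direction and call under each alternative that could be run for them; Ckmt1 is absent at a base mean of at least 100. Of 24 levels per kb 6 moved by more than the implied SD, among them Ckm and Ckb with the first-numbered transcript, chosen after seeing the data. Ckb moved to the same level with its longest protein-coding transcript, a planned choice. The implied coefficients of variation changed by less than 1.5 times with all size factors at 1. Ckmt1 had the fewest reads of the 8 genes and the widest implied spread between libraries.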

Other observations

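The 11 genes at base means of at least 10 whose SE was as large as that of Ckmt1 include Xist, the RNA of the inactive X chromosome, and the Y-linked Ddx3y, Eif2s3y, Kdm5d and Uty. They were named after their values were seen. Xist was at -0.21 (SE 2.12) at a base mean of 239, and Ddx3y at -0.37 (SE 2.89) at a base mean of 583. Levels of these genes thus differed widely between libraries within groups, and how sex was spread over the samples was not tested. The authors' deposited table is written with full precision for its first 8976 genes, which include Ckb and Ckmt2, and with about 7 digits in the other 14361, which include the other 6 genes. The adjustment of p-values over both stretches was recomputed as one.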
